A study of Mus musculus with 15 samples.

Results

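The sensing of endotoxin and of other microbial molecules was followed through 10 genes in irradiated mouse bone marrow mesenchymal stem cells (BM-MSCs) that were cultured with alginate gels. The 10 genes were Lbp, Cd14, Ly96, Tlr4, Tlr2, Tlr3, Myd88, Ticam1, Irak1 and Irak3. They were found by their symbol among the 54532 gene rows of the deposited count table, each symbol matched exactly 1 row, and all 10 were among the 15590 genes with enough reads to be tested. The question was whether these stromal cells carry transcripts for the receptors of a stimulus that could come with the gel material, and whether those transcripts change in the presence of the gel.

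The cells were primary BM-MSCs of C57BL/6 mice, bought from a supplier and used between passage 3 and passage 5. All 15 cultures had received 5 Gy, and RNA was taken after 48 h. IR-Con cultures had no gel. The other 4 groups were kept with a gel of alginate that carries the RGD peptide (Gel), the same gel with the cytokine IL-12 (Gel/IL-12), the gel with the clay Laponite (Gel/Laponite), or the gel in which Laponite had been loaded with IL-12 (Gel/Laponite@IL-12). Each group held 3 libraries. None of the groups was left without irradiation, so the comparisons are between irradiated cultures. The labels do not say whether libraries of a group came from separate cultures or animals, so p-values measure the spread between these libraries, which may be technical.

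Endotoxin, the lipopolysaccharide (LPS) of Gram-negative bacteria, is sensed by a relay. LBP lifts LPS from its aggregates, CD14 takes it over and hands it to MD-2 (the product of Ly96), and MD-2 with bound LPS joins TLR4 into a dimer. TLR4 then signals through MyD88 and the IRAK kinases to NF-kB, or, after uptake into endosomes and with the help of TRAM, through TRIF (the product of Ticam1) to IRF3 and interferon genes. TLR2 detects bacterial lipopeptides with TLR1 or TLR6 as its partner and uses MyD88, whereas TLR3 detects double-stranded RNA and uses TRIF alone. Stromal cells of the marrow are known to respond to several of these ligands although they are not immune cells.

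The total count per library ranged from 14506459 to 17818982. Levels are given in CPM, the reads of a gene scaled to a common library total (with TMM factors), and differences as log2 fold changes with their standard error (SE). The 3 IR-Con libraries were less alike than those of any gel group: beyond counting error, the coefficient of variation of a gene was 17.1% among the IR-Con libraries, against 3.52% to 4.05% within each gel group. Since edgeR shares 1 estimate of the spread over all groups, each difference from IR-Con was also tested with limma voom with weights by group, and for the 10 genes its adjusted p is given where it ends a call. Markers of the stromal cells were abundant, with a summed level of 8355 to 12410 CPM over 12 genes in IR-Con and 7335 to 7745 CPM in the gels. Most of that sum was Col1a1 (5637 to 9922 CPM in IR-Con and 4113 to 4643 CPM in the gels). Of the 12 genes, 4 were higher in the gels by edgeR (Thy1, Cxcl12, Vcam1 and Cd44). The 5 that were lower were Pdgfra (-0.11), Pdgfrb (-0.41), Itgav (-0.36), Lepr (-0.96) and Col1a1 (-0.76 on the log2 scale). Of all genes tested, 27.4% were called higher and 27.6% lower. Of the 14 macrophage and monocyte markers, Tyrobp and C1qa had no read in any library, and Ptprc, Adgre1 and Itgam had at most 5 reads per library. The summed level of that list was 13.8 to 20.3 CPM in IR-Con and 14.6 to 19.4 CPM in the gels, which overlap. It came mostly from Cd68, Csf1r, Lyz2 and Cd53, genes that are not confined to macrophages, and these moved in different directions. By edgeR, Cd68 (log2 fold change 0.38, adjusted p = 0.0179) and Cd53 (0.85, adjusted p = 0.00799) were higher in the gels, Lyz2 was lower (-1.27, adjusted p = 7.21e-05) and Csf1r was not called (-0.23, adjusted p = 0.285). Their part in the changes of the 10 genes was not tested. The neutrophil list summed to at most 1.98 CPM and the lymphoid list to at most 0.461 CPM in any library. The endothelial list summed to 5.05 to 6.8 CPM in IR-Con and 4.21 to 7.8 CPM in the gels. Of its 3 genes tested, Cdh5 was called higher in the gels (log2 fold change 1.36, adjusted p = 0.014 by edgeR), and Kdr and Pecam1 were not called. In these bulk samples, fewer cells of a type and less RNA per cell cannot be told apart.

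In the gels compared with IR-Con, 5 of the 10 genes were higher, 3 were lower and 2 did not pass the test (mean of the 4 gel groups, edgeR, adjusted p under 0.05). The largest rises were those of Lbp and Cd14, the genes that capture LPS. Among all 15590 genes tested, 55% were called in this comparison, 27.4% higher and 27.6% lower. The count of 8 among 10 is read against that background. With limma voom, 4 of the 10 genes were higher and 2 lower, beside 33.1% of all genes called (16.2% higher, 16.9% lower). The median log2 fold change of the 10 genes was 0.168, against -0.008 over all genes tested.

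Lbp encodes the LPS-binding protein, which in the body is an acute-phase protein of the liver. The gene lies on the plus strand of chromosome 2 (158306493 to 158332852 in GRCm38, GENCODE M21). Its level was 36.7, 46.9 and 45.4 CPM in the 3 IR-Con libraries and ran from 147 to 186 CPM over the 12 gel libraries, with a median of 173 CPM. Every gel library was above every IR-Con library. The difference was 1.98 on the log2 scale (SE 0.0611), a 3.94-fold rise with a 95% interval of 3.61-fold to 4.3-fold and an adjusted p of 2.06e-16 by edgeR's quasi-likelihood test.

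Cd14, on the minus strand of chromosome 18, encodes the co-receptor that takes LPS from LBP and exists in a form anchored in the membrane and in a soluble form. Its level was 14.1, 14.7 and 13.8 CPM in IR-Con. In the gels it ranged from 43.1 to 51.2 CPM, with a median of 48.4 CPM. The groups did not overlap, and the IR-Con libraries lay within 1 CPM of each other. Cd14 rose by 1.75 on the log2 scale (SE 0.0637), or 3.35-fold (95% interval 3.06 to 3.68), with an adjusted p of 3.19e-15 by edgeR. Leaving out any library kept the log2 fold change between 1.72 and 1.77.

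Ly96 encodes MD-2, the part of the receptor complex that binds the lipid of LPS, and lies on the plus strand of chromosome 1 (16688051 to 16709611). It was read in all 15 libraries but at a low level, with 53 to 128 counts per library. The IR-Con libraries gave 7.77, 3.45 and 3.69 CPM, and the gels 4.17 to 5.69 CPM with a median of 5.25 CPM. The first IR-Con library was the highest of all 15 and the other IR-Con libraries were the lowest, so the gels lay between them. The log2 fold change was 0.05 (SE 0.179) with an adjusted p of 0.825 by edgeR, and its 95% interval of -0.32 to 0.43 allows a change in either direction. That value rests on the first IR-Con library, since without it the log2 fold change was 0.54 with an adjusted p of 0.0048.

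**Figure D1:**
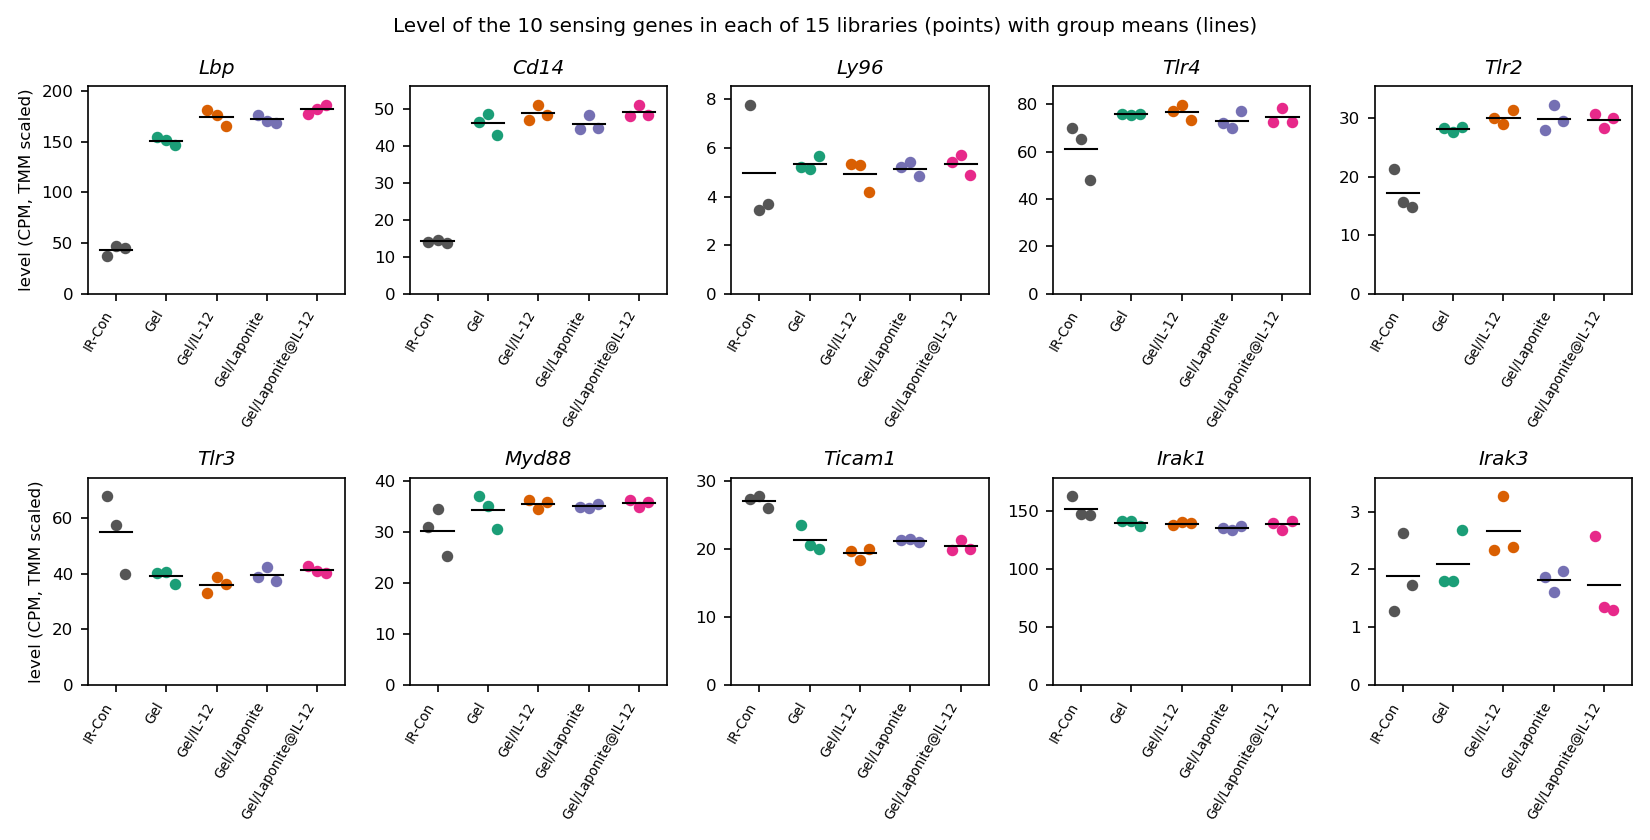
Level of each of the 10 genes (CPM, vertical axes from 0) in the 5 groups, with a point for each library and a line at the group mean. For Lbp and Cd14 the 12 gel libraries, at 147 to 186 and 43.1 to 51.2 CPM, sit far above the 3 IR-Con libraries, whereas for Ly96 and Irak3 the groups overlap.

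Tlr4, the signalling receptor for LPS, lies on the plus strand of chromosome 4 (66827584 to 66930284). It was expressed without a gel: the IR-Con libraries had 70.2, 65.3 and 47.9 CPM. The gel libraries had 70.1 to 79.8 CPM, with a median of 75.7 CPM. The ranges touched, since 11 of the 12 gel libraries were above the highest IR-Con library. The rise was 0.29 on the log2 scale (SE 0.0742), or 1.23-fold, with an adjusted p of 0.00233 by edgeR and 0.00946 by limma voom. It was 0.14 without the third IR-Con library, with an adjusted p of 0.0106.

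Tlr2, the receptor for bacterial lipopeptides, lies on the minus strand of chromosome 3 (83836272 to 83841767). It was at 21.3, 15.7 and 14.9 CPM in IR-Con and at 27.7 to 32.3 CPM in the gels, with a median of 29.2 CPM. The groups did not overlap. Tlr2 rose by 0.77 on the log2 scale (SE 0.0852), or 1.7-fold with a 95% interval of 1.5-fold to 1.93-fold, and the adjusted p was 1.56e-07 by edgeR.

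Tlr3, the endosomal receptor for double-stranded RNA, lies on the minus strand of chromosome 8 (45395665 to 45411080) and moved the other way. Its level was 67.7, 57.4 and 39.7 CPM in IR-Con. In the gels it was 32.9 to 42.9 CPM, with a median of 39.5 CPM. The third IR-Con library lay within the range of the gels, and 6 of the 12 gel libraries were below it. Tlr3 fell by 0.50 on the log2 scale (SE 0.101, 0.707-fold), with an adjusted p of 0.000478 by edgeR and 0.00106 by limma voom. Without the first IR-Con library the change was -0.32 with an adjusted p of 0.00764.

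The start regions of Tlr2 and Tlr3 are shown because these receptors moved in opposite directions, and that of Myd88, the adaptor of TLR2, because it holds other motifs. RefSeq windows on GRCm38.p6, from 250 bases before to 50 bases after an annotated start, were at hand for 6 of the 10 genes, in 8 windows. Capitals mark each match, on either strand, to 4 motifs: the κB motif, TTCNNNGAA (bound by STAT proteins), GAAANNGAAA (the interferon-stimulated response element) and TTGCNNAA (bound by C/EBP proteins). Of all 32851 windows in the table, 6.93% hold a κB match, 8.3% the STAT motif, 3.44% the interferon element and 10.8% the C/EBP motif. A match describes letters, not a site in use. The windows are Tlr2 at chr3:83841559-83841858, Tlr3 at chr8:45410331-45410630 and Myd88 at chr9:119339969-119340268, each on the minus strand and written 5′ to 3′.
Tlr2: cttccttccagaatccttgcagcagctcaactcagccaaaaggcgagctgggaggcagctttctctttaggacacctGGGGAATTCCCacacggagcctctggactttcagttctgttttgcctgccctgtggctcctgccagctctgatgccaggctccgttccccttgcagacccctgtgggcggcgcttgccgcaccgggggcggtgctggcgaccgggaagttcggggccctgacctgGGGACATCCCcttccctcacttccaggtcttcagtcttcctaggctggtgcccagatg
Tlr3: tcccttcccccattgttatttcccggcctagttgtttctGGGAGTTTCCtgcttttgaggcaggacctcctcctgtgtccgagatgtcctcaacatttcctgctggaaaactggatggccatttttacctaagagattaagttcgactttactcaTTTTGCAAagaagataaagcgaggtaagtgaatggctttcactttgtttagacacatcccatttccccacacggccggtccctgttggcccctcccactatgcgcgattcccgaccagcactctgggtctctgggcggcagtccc
Myd88: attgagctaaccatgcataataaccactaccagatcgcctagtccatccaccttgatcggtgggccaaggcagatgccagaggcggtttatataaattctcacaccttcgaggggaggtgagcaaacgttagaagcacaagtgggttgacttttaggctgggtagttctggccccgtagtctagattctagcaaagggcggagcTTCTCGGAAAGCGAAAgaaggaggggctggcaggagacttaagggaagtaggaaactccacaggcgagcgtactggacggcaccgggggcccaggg

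The Tlr2 window held 4 κB matches that merge into 2 stretches, from 173 to 163 bases before the start and across the start itself. The Tlr3 window, of a gene that fell, also held a κB match, 211 to 202 bases before the start, and a C/EBP match. In the Myd88 window a palindromic STAT match, which counts on both strands, overlapped an interferon element 40 to 31 bases before the start. The whole windows of Myd88 and Tlr3 lie inside the GENCODE M21 spans of these genes, so these distances hold for the RefSeq starts only. The window of Ticam1 and both windows of Irak1 held none of the 4 motifs. A window of Irak3 held a C/EBP match and its other window no match. Cd14, Lbp, Ly96 and Tlr4 were not matched in the table.

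Myd88 encodes the adaptor that TLR4, TLR2 and the receptors for IL-1 share, and lies on the minus strand of chromosome 9 (119335934 to 119341411). It was at 31.1, 34.5 and 25.4 CPM in IR-Con and at 30.7 to 37.1 CPM in the gels, with a median of 35.4 CPM. The ranges overlapped, with 10 of the 12 gel libraries above the highest IR-Con library. The log2 fold change was 0.21 (SE 0.0725) with an adjusted p of 0.0173 by edgeR, but the call was lost with limma voom (adjusted p = 0.163) and without the third IR-Con library (log2 fold change 0.10, adjusted p = 0.185). Myd88 shares 290 exon bases with Acaa1a on the opposite strand, and the sources used here do not say whether reads were counted by strand. Acaa1a fell by 0.26 on the log2 scale, from 68.3 to 77.6 CPM in IR-Con to 56.5 to 65.4 CPM in the gels.

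Ticam1 encodes TRIF, the adaptor that carries TLR3 signals and the endosomal signal of TLR4, and lies on the minus strand of chromosome 17 (56269319 to 56276786). Its level was 27.3, 27.8 and 26 CPM in IR-Con. It was 18.4 to 23.6 CPM in the gels, with a median of 20.3 CPM. All 12 gel libraries were below all 3 IR-Con libraries. Ticam1 fell by 0.39 on the log2 scale (SE 0.0634, 0.762-fold, 95% interval 0.695 to 0.835), with an adjusted p of 2.3e-05 by edgeR and 0.00817 by limma voom. Tlr3 and the adaptor on which it depends were thus both lower in the gels.

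Irak1 encodes a kinase that MyD88 recruits and lies on the minus strand of chromosome X (74013914 to 74023918). It was at 162, 147 and 146 CPM in IR-Con and at 133 to 141 CPM in the gels, with a median of 138 CPM. The groups did not overlap, but the change was small. It was -0.14 on the log2 scale (SE 0.0393, 0.909-fold), called by edgeR with an adjusted p of 0.00524 and not by limma voom (adjusted p = 0.0903) or in edgeR with no filter on low counts (adjusted p = 0.0975). Without the first IR-Con library it was -0.09, with an adjusted p of 0.0462.

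Irak3 encodes IRAK-M, a pseudokinase that restrains the pathway and is best known from macrophages, and lies on the minus strand of chromosome 10 (120141648 to 120202130). It had 21 to 58 counts per library. The level was 1.28, 2.62 and 1.74 CPM in IR-Con and 1.3 to 3.26 CPM in the gels, with a median of 1.92 CPM. The groups overlapped throughout, the log2 fold change was 0.12 (SE 0.248) and the adjusted p was 0.696 by edgeR. The 95% interval of the fold, 0.762 to 1.56, is too wide to call the level equal. Exons of Irak3 overlap those of the opposite-strand gene Tmbim4, whose level was 30.4 to 40.4 CPM, and how reads of the shared exons were assigned is not given in the sources used here.

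**Figure D2:**
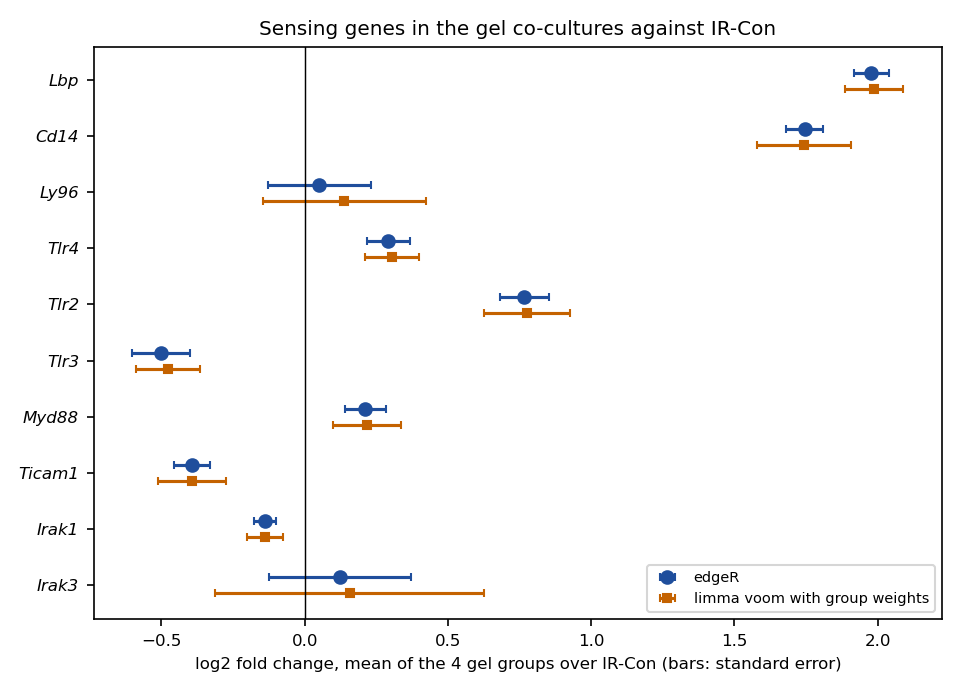
Log2 fold change of each gene, averaged over the 4 gel groups and relative to IR-Con, by edgeR (circles) and by limma voom with group weights (squares), with bars of 1 SE. Lbp (1.98), Cd14 (1.75) and Tlr2 (0.77) lie to the right, Tlr3 (-0.50) and Ticam1 (-0.39) to the left, and the bars of Ly96 and Irak3 reach across 0.

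Each gel group was also set against IR-Con in the same model. These 4 comparisons share the same 3 IR-Con libraries, so they do not repeat each other independently. With the plain gel, 4 of the 10 genes were higher and 2 lower, where 44.7% of all genes were called (22.9% higher, 21.8% lower). For Gel/IL-12, 5 were higher and 3 lower, beside 46.5% of all genes (24% higher, 22.6% lower). For Gel/Laponite the count was 4 higher and 3 lower, beside 44.9% (23.2% higher, 21.7% lower). Gel/Laponite@IL-12 gave 5 higher and 3 lower, beside 44.4% (23% higher, 21.5% lower). Lbp, Cd14, Tlr2, Tlr4, Tlr3 and Ticam1 were called in each of the 4, and the counts differed through Myd88 and Irak1. The calls of Lbp, Cd14, Tlr2 and Ticam1 held in each gel under every alternative run. That of Tlr4 for Gel/Laponite (log2 fold change 0.25, adjusted p = 0.0305 by edgeR) was lost without IR-Con replicate 3 (0.10, adjusted p = 0.131), Gel/Laponite replicate 1 (adjusted p = 0.0593) or Gel/Laponite replicate 3 (adjusted p = 0.113). For Gel/Laponite@IL-12 it (0.28, adjusted p = 0.017) was lost without IR-Con replicate 3 (0.13, adjusted p = 0.051) or its own replicate 2 (adjusted p = 0.0735). The call of Tlr3 for Gel/Laponite@IL-12 (-0.41, adjusted p = 0.0174) was lost without its own replicate 3 (adjusted p = 0.0548) and when replicate 1 (-0.24, adjusted p = 0.0985) or replicate 2 (adjusted p = 0.0625) of IR-Con was left out. In a fit of only the 6 libraries of a pair, the call of Tlr4 was lost in all 4 gels and that of Tlr3 in Gel/Laponite@IL-12 (adjusted p = 0.0733). With limma voom, Myd88 and Irak1 were not called for Gel/IL-12 (adjusted p = 0.15 and 0.148) or Gel/Laponite@IL-12 (0.146 and 0.126). The fold of Cd14 over IR-Con was 3.26 with the plain gel, 3.45 with IL-12 added, 3.24 with Laponite and 3.47 with both. The fold of Lbp was 3.51, 4.06, 4 and 4.23 in the same order. Both genes were thus already higher with the plain gel.

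Levels can be set between genes only per length, here as CPM per kilobase (kb) of exon. In IR-Con the highest was Irak1, with a median of 31.2 CPM per kb, followed by Myd88 (12.1), Tlr4 (11.8), Tlr3 (11), Lbp (9.4), Ticam1 (9.13), Cd14 (8.17), Tlr2 (5.2), Ly96 (3.61) and Irak3 (0.473). Neighbours from Myd88 to Ticam1 overlapped in their ranges, as did Tlr2 and Ly96. In the gels, Lbp (35.9 CPM per kb) came before Irak1 (29.4) and Cd14 (27.9), and the last of these overlapped with Irak1. Myd88 (13.7) and Tlr4 (13.6) followed and overlapped, then Tlr2 (9.7), Tlr3 (7.58), Ticam1 (6.79), Ly96 (5.15) and Irak3 (0.521). The pair of genes that capture LPS thus moved from the middle of the order to its top, while Ly96, the partner that Tlr4 needs to bind LPS, was among the lowest in both. The median of Tlr4 per kb was above that of Ly96 in both groups and their ranges did not overlap.

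**Figure D3:**
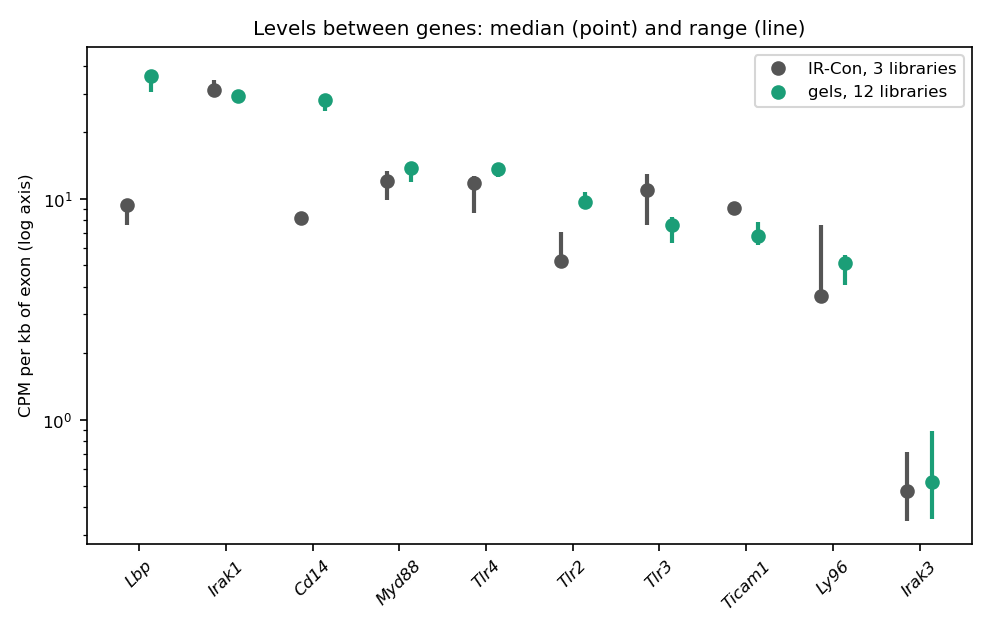
Level between genes in CPM per kb of exon on a log axis, with the median (point) and the range (line) of the 3 IR-Con libraries and of the 12 gel libraries. Lbp and Cd14 move from about the height of Tlr4 in IR-Con (9.4, 8.17 and 11.8) to well above it in the gels (35.9, 27.9 and 13.6), and Irak3 is the lowest in both.

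Among the gels, the effect of IL-12 was the mean of the groups that hold it minus the mean of the groups that do not, in a model of the 12 gel libraries alone. Lbp was the 1 gene of the 10 that was called, with a higher level, where 0.327% of all genes were called and 0.244% were called higher. Its level was 154, 151 and 147 CPM in Gel and 181, 176 and 166 CPM in Gel/IL-12. In Gel/Laponite it was 176, 171 and 169 CPM, and in Gel/Laponite@IL-12 177, 182 and 186 CPM. The 3 libraries of the plain gel were the lowest of the 12 and did not overlap with any other group. Gel/IL-12 overlapped with both Laponite groups, which did not overlap with each other. The IL-12 effect on Lbp was 0.14 on the log2 scale (SE 0.0232), or 1.1-fold with a 95% interval of 1.07 to 1.14, and its adjusted p was 3.35e-05 by edgeR. The call was lost when IR-Con was kept in the model (adjusted p = 1), and the size of the change was then 0.15.

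The effect of Laponite was formed in the same way, and Lbp was again the 1 gene called, with a higher level, where 5.27% of all genes were called and 2.82% were called higher. The difference was 0.12 on the log2 scale (SE 0.0232), or 1.09-fold with a 95% interval of 1.05 to 1.12, and its adjusted p was 0.000127 by edgeR. With IR-Con in the model the adjusted p was 0.444. The IL-12 effect with Laponite minus that without it was called for 0 of the 10 genes by edgeR, by limma voom and by DESeq2, where edgeR and limma voom each called 3.55% of all genes and DESeq2 3.23%. For Lbp this difference was -0.12, with an unadjusted p of 0.00928 and an adjusted p of 0.142, and Tlr3 was the other of the 2 genes with an unadjusted p under 0.05 (0.19, unadjusted p = 0.0298, adjusted p = 0.267).

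The remaining genes gave no call among the gels. For Tlr4 the 95% interval of the IL-12 effect was 0.974-fold to 1.06-fold and that of the Laponite effect 0.923-fold to 1.01-fold. Tlr2 had intervals of 0.962-fold to 1.1-fold for IL-12 and 0.955-fold to 1.09-fold for Laponite. For Cd14 the IL-12 effect was 0.09 on the log2 scale, with an unadjusted p of 0.022 and an adjusted p of 0.659. For Tlr3 the Laponite effect was 0.10, or 1.01-fold to 1.14-fold by its 95% interval. Its unadjusted p was 0.0206 and its adjusted p 0.191 by edgeR. The intervals of Tlr4 and Tlr2 thus lay between 0.923-fold and 1.1-fold. For the less abundant genes the intervals were wider, from 0.58-fold to 0.963-fold for Irak3 under Laponite (unadjusted p = 0.025, adjusted p = 0.213) and from 0.838-fold to 1.13-fold for Ly96 under IL-12.

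**Figure D4:**
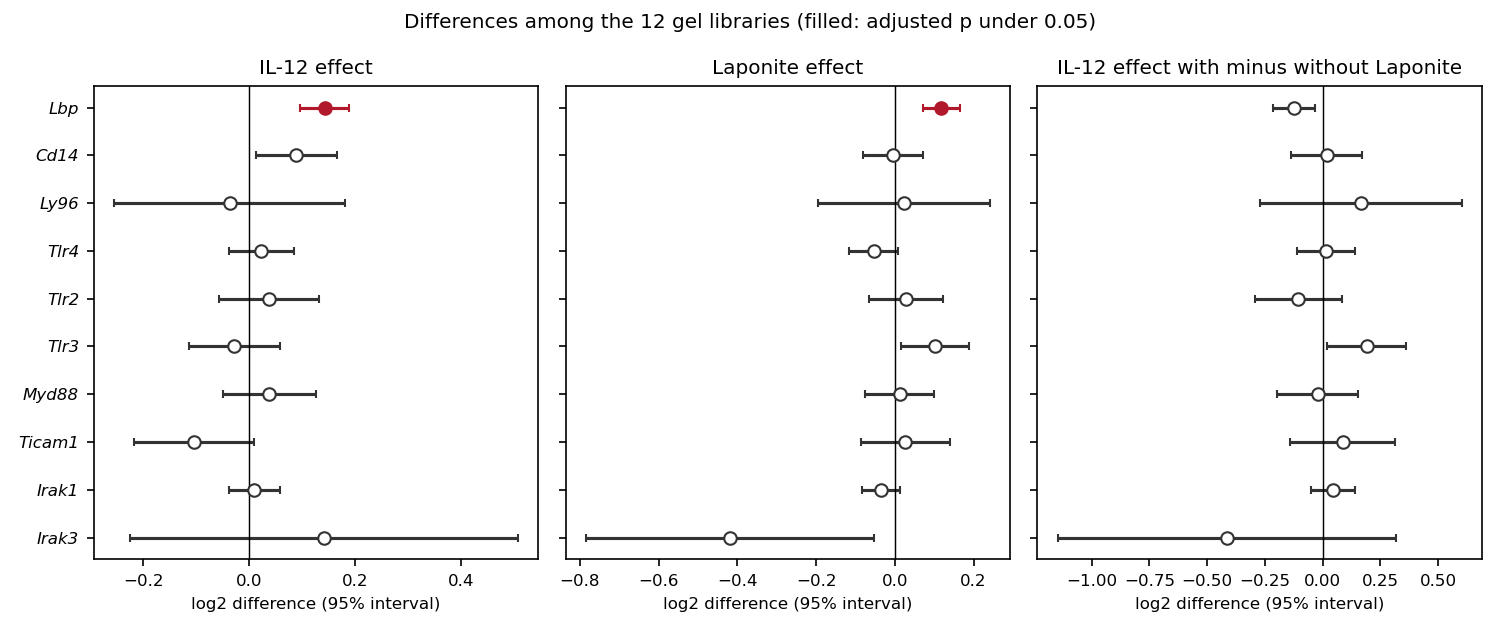
Differences among the 12 gel libraries for each gene, as log2 values with 95% intervals: the IL-12 effect, the Laponite effect, and the IL-12 effect with Laponite minus that without (each panel has its own scale). Filled points passed an adjusted p of 0.05, and these are Lbp for IL-12 (0.14) and for Laponite (0.12).

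The other Toll-like receptors and their helpers were counted from a list of 17 genes, of which 8 were tested. With the gels 4 of these rose, 1 fell and 3 gave no call by edgeR, and 3 rose and 1 fell by limma voom. The counts of this and the following lists stand beside the 27.4% of all genes called higher and 27.6% called lower by edgeR (16.2% and 16.9% by limma voom). Hsp90b1, Saa3, Irf7 and Il1b each stand in more than a single list, so the counts of the lists are not fully separate. The median log2 fold change of the 8 genes tested here was 0.361. Tlr1, a partner of TLR2 for triacylated lipopeptides, fell from 33.5 to 40.6 CPM in IR-Con to 18.2 to 24.9 CPM in the gels (log2 fold change -0.81, SE 0.0706, adjusted p = 3.95e-09 by edgeR), while Tlr2 itself rose. Tlr6, the partner for diacylated lipopeptides, was at 6.38 to 7.68 and 4.46 to 7.12 CPM (adjusted p = 0.225 by edgeR). The genes that rose were chaperones of receptor folding and transport. Hsp90b1 (gp96) rose by 0.62, Cnpy3 (PRAT4A) by 0.73 and Cnpy4 by 0.34, and Unc93b1, which escorts the endosomal receptors, by 0.39 with edgeR (adjusted p = 0.0036) but not with limma voom (adjusted p = 0.152). Unc93b1 was also lower in gels with Laponite than in those without (-0.43, adjusted p = 1.22e-05 by edgeR). Tlr11 and Tlr12 had no read, and Tlr8, Tlr9, Cd180 and Ly86 had at most 10 counts over all 15 libraries.

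Of the other adaptors, kinases and ubiquitin enzymes, 23 of 24 genes were tested, 4 were higher in the gels, 8 were lower and 11 did not pass, with a median log2 fold change of 0.008. The 12 called among 23 are close to the 55% called among all genes. With limma voom 1 of them was higher and 6 were lower. The gene that was higher was Traf3, which couples TRIF to type I interferon and limits the MyD88 branch, and it rose by 0.49 (adjusted p = 1.42e-05 by edgeR). The ubiquitin ligase Traf6 fell by 0.31, its binding partner Tab3 by 0.49, the kinase Map3k7 (TAK1) by 0.25 and Peli2 by 0.48. Tirap, the bridge between TLR4 or TLR2 and MyD88, was at 21.7 to 25.9 CPM in IR-Con and 23.6 to 27.2 CPM in the gels (adjusted p = 0.21 by edgeR). Irak4, the kinase at the head of the IRAK cascade, was at 25.9 to 27.7 and 24.7 to 30.3 CPM (adjusted p = 0.561). Ticam2, which encodes TRAM and links TLR4 to TRIF, had 6 counts in all 15 libraries together. The transcript of the link between TLR4 and TRIF was therefore hardly detected in any group at this depth.

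Of a list of genes taken as negative regulators, 13 of 15 were tested. Of these 6 were higher, 4 lower and 3 did not pass (5 higher and 4 lower by limma voom), with a median log2 fold change of 0.098. Among those that rose were Nfkbiz by 1.74, Zc3h12a (regnase-1) by 1.28, Tnfaip3 (A20) by 0.97 and Nfkbia by 0.29. Whether Nfkbiz or any other gene of this list restrained the pathway in these cells was not tested, so a rise is not read as restraint. Tnip3, which binds A20, rose from at most 0.546 CPM to 1.18 to 2.56 CPM, with a fitted log2 fold change of 3.22 (SE 0.496, adjusted p = 1.29e-05 by edgeR). The genes that fell were Tollip (-0.22), Cyld (-0.21), Otud7b (-0.21) and Rnf216 (-0.20). Nfkbiz was also the gene with the level most like that of Cd14 over the 15 libraries (Pearson r of log2 CPM 0.997). For Lbp the most alike was Lcn2 (r = 0.997), for Tlr2 AC160637.1 (r = 0.988), for Tlr3 Mtdh (r = 0.96) followed by the interferon-induced Oasl2 (r = 0.958), and for Tlr4 Kpnb1 (r = 0.959). These values are descriptions over 15 libraries that share the contrast with IR-Con, ranked among 9620 other genes with a mean of at least 10 CPM.

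Receptors and ligands of the IL-1 family, whose receptors use MyD88 and the same IRAK kinases, were tested for 9 of 11 genes. Of these 6 were higher and 1 was lower in the gels (5 and 1 by limma voom), with a median log2 fold change of 0.701. The receptor Il1r1 rose by 0.50, its co-receptor Il1rap by 0.97, the IL-33 receptor Il1rl1 by 0.80 and the antagonist Il1rn by 1.15. Il18 fell by 1.72 (SE 0.243) at a low level, from 2.11 to 2.85 CPM in IR-Con to 0.307 to 1.26 CPM in the gels. Il1b had 9 counts and the decoy receptor Il1r2 had 2 counts over all libraries. Il33 (0.22, adjusted p = 1.66e-09) and Il1rl1 (0.13, adjusted p = 8.03e-10) were also higher in gels with Laponite by edgeR.

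Other sensors of microbial molecules were tested for 11 of 15 genes, with 6 higher, 3 lower and a median log2 fold change of 0.219. Limma voom called 4 higher and 2 lower, without Gsdmd (adjusted p = 0.0995), Mb21d1 (0.113) and Pycard (0.194). Casp4 (caspase-11 of the mouse), which binds LPS inside the cell, rose from 7.72 to 14 CPM in IR-Con to 27.2 to 33 CPM in the gels (1.39, SE 0.111, adjusted p = 1.34e-09 by edgeR). Ripk2, the kinase of the NOD receptors, rose by 0.76 and Tmem173 (STING) by 0.49. The RNA sensor Ddx58 (RIG-I) fell by 0.47, and Ifih1 (MDA5) by 0.29, in the direction of Tlr3. The ranges of Ifih1 overlapped, at 74.4 to 114.8 CPM in IR-Con and 74.5 to 86.4 CPM in the gels, and those of Ddx58 did not. Proteins reported as endogenous ligands of TLR2 or TLR4 were tested for 10 of 12 genes, with 7 higher and 1 lower by both tools and a median log2 fold change of 0.578. Saa3 rose from at most 1.25 CPM in IR-Con to 224 to 484 CPM, Vcan (versican) rose by 2.03, Tnc (tenascin-C) by 1.18 and Dcn (decorin) by 0.76, while Bgn (biglycan) fell by 0.20.

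Genes known as outputs of the 2 branches were counted in the same way. Of the MyD88 and NF-kB outputs 11 of 14 were tested and all 11 were higher in the gels by both tools, with a median log2 fold change of 4.01 beside -0.008 for all genes. The lists were chosen with earlier results of these data known, so this count and median only describe the genes listed. The smallest rises were those of Ptgs2 (0.26) and Vcam1 (0.77). Cxcl5 rose from 2.24 to 3.64 CPM in IR-Con to 99.4 to 160 CPM, Cxcl1 from 3.2 to 5.37 CPM to 64.9 to 95.9 CPM, and Lcn2 from at most 0.417 CPM to 103 to 174 CPM. The 3 outputs not tested, Tnf, Il1b and Csf3, had 17, 9 and 19 counts over all libraries. Of the TRIF and IRF3 outputs 9 of 10 were tested, with 3 higher, 5 lower and 1 not called and a median of -0.235. Cxcl10 rose by 1.36, Ccl5 by 0.98 and Irf1 by 0.66, whereas Ifit3 fell by 0.95, Ifit1 by 0.66, Ifit2 by 0.32, Rsad2 by 0.25 and Irf7 by 0.23. Of those that fell, Ifit1 (442.5 to 727.1 CPM in IR-Con, 357.5 to 449.9 CPM in the gels), Ifit2 and Rsad2 overlapped in their ranges. Ifit3 and Irf7 did not, and the IR-Con libraries of Ifit3 spread widely (308.7 to 594.4 CPM). Ifnb1, the interferon gene of this branch, had 46 counts in all. These outputs are also reached by IL-1, TNF, interferon and RNA sensors, and the part of the 10 genes in them was not tested.

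In the model of the 12 gel libraries, some genes of these lists were called for IL-12 or Laponite beside Lbp. These calls depend on that model. With all 15 libraries in the model, 3 genes in place of 51 were called for IL-12 and 134 in place of 822 for Laponite. Of the 11 MyD88 and NF-kB outputs tested, 5 were higher with IL-12 (Cxcl1, Cxcl5, Ccl2, Lcn2 and Saa3) by edgeR, where 0.244% of all genes were called higher. The same 5 and Nos2 were higher with Laponite, where 2.82% of all genes were. Ccl2, a chemokine for monocytes, had 231.7 to 315.7 CPM in the gels and rose by 0.16 with IL-12 (adjusted p = 4.42e-08) and by 0.21 with Laponite (adjusted p = 7.75e-13). Nos2, the inducible nitric oxide synthase, had 4.26 to 8.83 CPM and rose by 0.51 with Laponite (adjusted p = 0.00028). Of the 9 TRIF and IRF3 outputs tested, 8 were higher with Laponite, from Irf1 (0.10) to Rsad2 (0.21), and Isg15 among them rose by 0.12 (adjusted p = 0.00769). These values average gels with and without IL-12. The interaction was called by edgeR for Rsad2 (0.41), Cxcl10 (0.39), Ifit3 (0.34), Ifit1 (0.32) and Ifit2 (0.23). By these log2 values their Laponite effect was higher in gels with IL-12 than in gels without it. Their averaged Laponite effects were 0.21, 0.17, 0.18, 0.10 and 0.20 in the same order. Beside interactions of that size, the averages do not show a rise with Laponite in gels without IL-12. These interaction calls were lost with all 15 libraries in the model. Ccl5 was higher with IL-12 by edgeR (0.10, adjusted p = 0.0391) but not by DESeq2. Of the list of negative regulators, Tnfaip3, Nfkbia and Dusp1 were higher with Laponite by 0.12, 0.13 and 0.16. For Dusp1 too the Laponite effect was larger with IL-12 (interaction 0.20). In the other lists, Ddx58 was higher with Laponite by 0.12, again with a larger effect in the presence of IL-12 (interaction 0.19). Gsdmd (the pore protein of pyroptosis) was lower with Laponite (-0.13, adjusted p = 0.0356 by edgeR), and Dcn was higher with IL-12 by 0.18. Vcan (-0.12), Fn1 (fibronectin, -0.09, adjusted p = 0.0125) and Bgn (-0.05) were lower with Laponite by edgeR, and the call of Bgn was lost with limma voom (adjusted p = 0.0897).

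**Figure D5:**
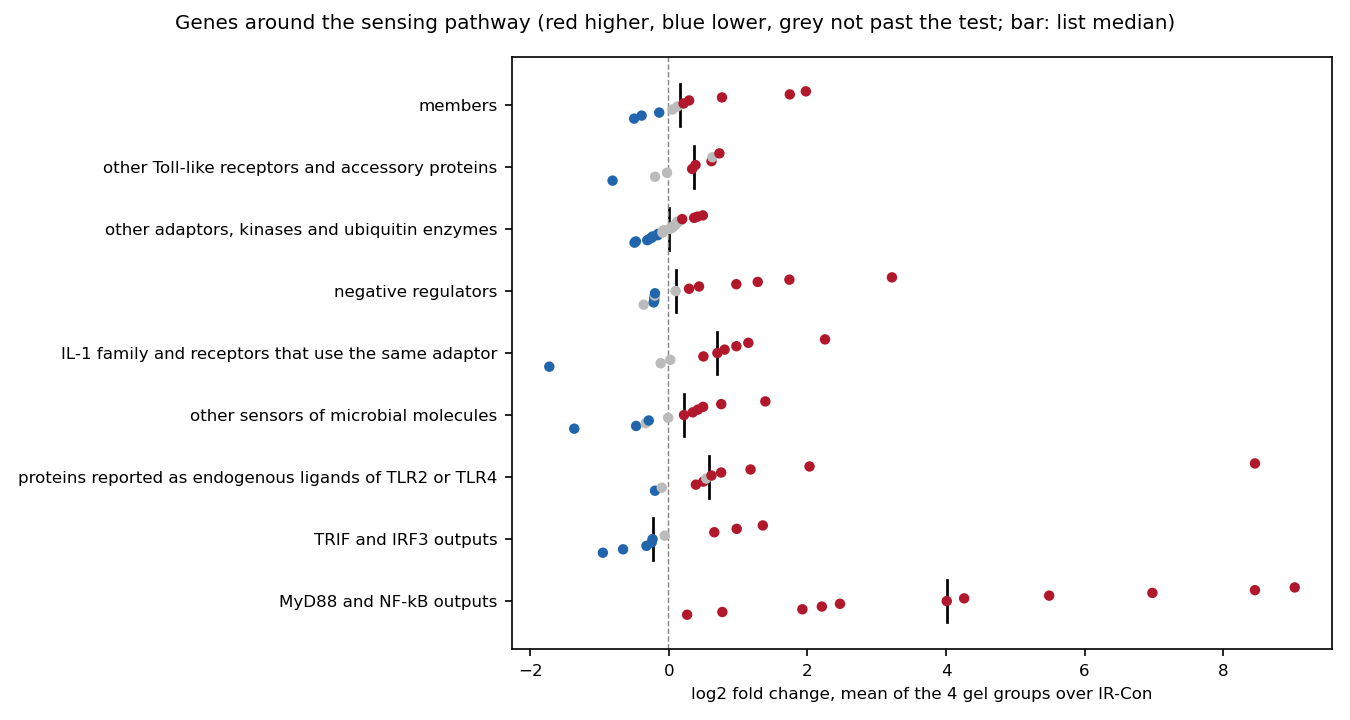
Log2 fold change, averaged over the 4 gel groups and relative to IR-Con, of each tested gene in the 10 genes (members) and 8 lists around them, with the list median as a bar and the median of all genes as a dashed line (-0.008). The MyD88 and NF-kB outputs all lie to the right (median 4.01), the TRIF and IRF3 outputs lie on both sides (median -0.235), and the 10 genes run from -0.50 to 1.98. The lists were chosen with earlier results of these data known.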

How the data were processed

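RNA-seq of 15 libraries of irradiated mouse BM-MSCs was analysed. The authors deposited a read count for each gene and library, as whole numbers without normalization, beside a gene length in bases. The labels name the genome build mm10. The aligner, the counting tool and the use of strand are not given in the sources used here. The 15 FPKM columns, 20 columns of group means and the authors' own 10 comparisons (log2 fold changes and adjusted p-values) were not used. Coordinates and exon lengths are those of GENCODE M21 on GRCm38, in which 54409 of the 54532 gene identifiers were found, and promoter windows are those of RefSeq on GRCm38.p6.

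Genes were kept with filterByExpr of edgeR 4.0.16 (minimum count 10, minimum total 15), which retained 15590 genes, and TMM factors were applied to the library totals (0.993 to 1.01). Differences from IR-Con were tested in a model of 15 libraries (10 residual degrees of freedom) and those among gels in a model of 12 libraries (8 residual degrees of freedom), with the robust quasi-likelihood F test and Benjamini-Hochberg adjustment over all genes of each of 8 comparisons, called at an adjusted p under 0.05. Limma 3.58.1 (voom with group weights) and DESeq2 1.42.0 were alternatives, as were other size factors, no filter, a replicate block, other sets of libraries and leaving out each library. R 4.3.3 and Python 3.11.15 were used.

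The 10 genes, the gene lists and the motifs were chosen with earlier results of these data known. Named from each list were up to 4 genes with the smallest adjusted p against IR-Con, those called for IL-12 or Laponite, and some named after their values were seen for their role. A median of 16126329 counts per library makes genes below about 5 CPM, such as Irak3, imprecise.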

Additional observations from a re-analysis of the deposited data

Results flagged for a closer look

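None of the 10 sensing genes was singled out by these checks. In 12 genes of the surrounding lists, the effect of IL-12 with Laponite differed from that without it, by the interaction term of edgeR's quasi-likelihood test with adjustment over all genes. The same value is the Laponite effect with IL-12 minus that without it. On the log2 scale this difference was 0.39 for Cxcl10, 0.41 for Rsad2, 0.34 for Ifit3, 0.32 for Ifit1 and 0.23 for Ifit2, all of them interferon-induced genes. It was 0.2 for the phosphatase gene Dusp1, 0.19 for the RNA sensor gene Ddx58 and 0.17 for Vcan. It was -0.15 for the chaperone gene Hsp90b1, -0.19 for Hmgb1, -0.16 for Dcn and -0.2 for Lcn2. In a model of all 15 libraries, 0 of all genes were called for this term.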

How the results depend on the processing

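The calls of Lbp, Cd14, Tlr2, Tlr3, Tlr4 and Ticam1 against IR-Con (mean of the gels) kept their direction and side of the threshold under every alternative run, and those of Myd88 and Irak1 did not, as given above. Without a library, the count of the 10 genes called ranged from 7 to 9 for the mean of the gels, 6 to 8 for Gel, 6 to 9 for Gel/IL-12 and 6 to 8 for Gel/Laponite. For Gel/Laponite@IL-12 it ranged from 5 to 8, with 3 to 6 higher and 1 to 3 lower, and the lowest counts came without its replicate 2 (5), without IR-Con replicate 3 (3 higher) and without IR-Con replicate 1 (1 lower). With only the 6 libraries of a pair, 5 were called in Gel/IL-12 (3 higher), and 4 in Gel/Laponite@IL-12 (3 higher, 1 lower). With all 15 libraries in the model, the IL-12 effect and the Laponite effect each called 0 of the 10.

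Some values with no call changed sign when a library was left out. Against IR-Con, Ly96 ranged from -0.158 to 0.538 (log2 fold change) and Irak3 from -0.101 to 0.448. The IL-12 effect ranged from -0.066 to 0.016 for Ly96, -0.057 to 0.001 for Tlr3 and -0.052 to 0.248 for Irak3. The Laponite effect ranged from -0.027 to 0.015 for Cd14 (0.001 with all 15 libraries), -0.03 to 0.054 for Ly96, -0.001 to 0.051 for Tlr2 and -0.024 to 0.042 for Myd88.

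Counts over all genes, compared after seeing the data, were 8573 with edgeR and 5156 with limma voom for the mean of the gels. With 6 libraries they were 4517 in place of 6968 (Gel), 4630 in place of 6997 (Gel/Laponite) and 4490 in place of 6924 (Gel/Laponite@IL-12). With all 15 libraries they were 3 in place of 51 (IL-12), 134 in place of 822 (Laponite) and 0 in place of 554 (interaction). Without Gel/IL-12 replicate 1 they were 33 and 368 for IL-12 and the interaction.

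Replicate numbers did not pair the libraries, since deviations of same-numbered libraries correlated at -0.072 to 0.041. With the replicate block, 8 of the 10 genes were again called for the mean of the gels, 7 in place of 8 were called for Gel/IL-12, and no other count of calls of the 10 genes changed.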
